A study of Mus musculus with 10 samples.

Results

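Genes that make sterols and fatty acids were followed through tumours and normal tissue of the mouse cerebellum. The set held 37 genes, chosen by name from the 2 pathways: 17 enzymes that build cholesterol, 14 enzymes that build, desaturate and elongate fatty acids, 5 regulators of both, and Cyp46a1, which removes cholesterol from neurons. A probe set counted as a member if the array annotation gave it only 1 of these symbols. On both chips together 84 of 45137 probe sets did so, 75 of which passed the filter on low values and were tested. Each of the 37 genes had at least 1 tested probe set, among 14702 genes tested in all.

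The study measured RNA of medulloblastoma, a malignant tumour of the cerebellum, and of cerebellar tissue next to it. Both came from mice that carried CAGGS-CreER, a tamoxifen-activated recombinase under a promoter active in most cell types, together with R26-SmoM2, an activated form of the Hedgehog signal transducer Smoothened. Tamoxifen had been given on postnatal day 10, with 1 mg for each 40 g that a mouse weighed, so the cerebellar tissue that the labels call wild type shared the alleles and the drug with the tumours. On each of the Affymetrix chips 430A and 430B there were 3 tumour arrays and 2 cerebellum arrays. The labels number the samples of a tissue as biological replicates without naming animals, ages at collection or sexes, so a p-value here weighs a difference against the scatter of these few arrays alone, and that scatter may be technical in part.

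Cholesterol synthesis starts from acetyl-CoA, passes through mevalonate to isoprenoid units, joins these into squalene, closes the ring to lanosterol and trims lanosterol to cholesterol. The brain makes its own cholesterol, since lipoproteins of the blood hardly cross into it, and myelinating oligodendrocytes and astrocytes are the main producers after birth. The enzymes are switched on together by the SREBP transcription factors, which SCAP escorts out of the endoplasmic reticulum when sterols are low and INSIG proteins hold back when sterols are high. Cholesterol is attached to Hedgehog ligands and binds Smoothened, which ties this pathway to the one that drives these tumours.

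Short elements known from this control were looked for in the promoters of the member genes. The 3 promoters shown stand for an enzyme with a sterol regulatory element and for the 2 sterol enzymes that fell in the tumours. The 250 bases before the start were searched on both strands for TCACNCCAC, a sterol regulatory element that SREBP proteins bind, for CCAAT, which the partner factor NF-Y binds, and for the E-box CACGTG. Sequences are from RefSeq (GRCm38.p6), 5′ to 3′ along the gene, with matches in capitals, and no 2 matches overlapped in the 3 windows. Hmgcs1 lies on the plus strand at chr13:119690101-119690350, Sc5d on the minus strand at chr9:42264301-42264550 and Msmo1 on the minus strand at chr8:64733579-64733828.
Hmgcs1: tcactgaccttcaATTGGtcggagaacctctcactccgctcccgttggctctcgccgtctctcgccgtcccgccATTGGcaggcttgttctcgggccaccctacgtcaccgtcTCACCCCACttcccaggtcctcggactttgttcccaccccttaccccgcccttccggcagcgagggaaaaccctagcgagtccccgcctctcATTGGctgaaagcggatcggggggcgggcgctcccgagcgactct
Sc5d: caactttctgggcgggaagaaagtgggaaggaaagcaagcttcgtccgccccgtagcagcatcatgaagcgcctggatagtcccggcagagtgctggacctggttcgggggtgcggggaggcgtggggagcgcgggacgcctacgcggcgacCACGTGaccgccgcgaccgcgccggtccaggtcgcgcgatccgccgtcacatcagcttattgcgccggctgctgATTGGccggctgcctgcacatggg
Msmo1: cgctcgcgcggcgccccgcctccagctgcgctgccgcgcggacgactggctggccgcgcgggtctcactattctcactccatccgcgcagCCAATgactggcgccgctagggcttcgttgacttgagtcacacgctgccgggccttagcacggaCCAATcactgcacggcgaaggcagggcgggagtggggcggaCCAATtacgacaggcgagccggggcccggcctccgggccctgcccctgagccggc
The Hmgcs1 window held 1 sterol regulatory element, 137 bases before the start, and 3 CCAAT boxes on the reverse strand, written ATTGG. Sc5d had 1 CCAAT box, 24 bases before the start, and 1 E-box. Msmo1 had 3 CCAAT boxes, at 160, 96 and 55 bases before the start. Windows were at hand for 31 of the 37 genes. All 14 sterol enzymes with a window held a CCAAT box in at least 1 of their windows, as did 5 of 11 fatty acid enzymes. Counted by window, 61% of the 41 member windows held one, against 33.8% of all 32817 windows of this length. Windows at an identical position were counted once in the full set, while the member windows were not reduced in that way. The sterol regulatory element was found in 1 of 41 member windows (2.44%), against 1.05% of all windows, and the E-box in 6 of 41 (14.6%) against 6.02%. These matches describe letters and are not evidence of binding.

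The deposited intensity had array medians from 33.3 to 35.9 units on 430A and from 22.5 to 24 on 430B. Across probe sets, log2 values of the 2 cerebellum samples correlated with r = 0.981 on 430A and 0.967 on 430B, those of tumours with r from 0.96 to 0.981 and from 0.929 to 0.969, and a tumour and a cerebellum sample with r from 0.794 to 0.859 on either chip. Labels and markers matched, in that the summed intensity of 11 markers of dividing granule neuron precursors was 4927 to 6007 in tumours and 221 to 526 in cerebellum on 430A. That of 8 Purkinje cell markers was 271 to 526 against 13444 to 17064. The precursor markers Gli1 and Gli2 had cerebellum levels of 13.0 and 10.4 units, under 15.9 units, the level below which 430A probe sets were not tested. These markers were thus tested only through their tumour values. Cerebellum 1 was the cerebellum sample with the higher precursor sum (526 against 221) and the lower Purkinje sum (13444 against 17064), and results that rest on 1 cerebellum sample are given without it below.

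In these tumours the desaturases Scd1, Scd2 and Fads1 fell, Srebf1 rose, and 15 of 17 enzymes of cholesterol synthesis were not called. Of the 37 genes 1 rose and 8 fell in limma at an adjusted p below 0.05, where 10.7% of all tested genes rose and 16% fell. None of the 17 sterol enzymes rose and 2 fell, or 11.8%, near the share of all genes that fell. Of the 14 fatty acid enzymes none rose and 4 fell, or 28.6%, and 3 of those 4 were desaturases. The counts moved with single samples. Without tumour 2 there were 3 sterol enzymes higher, where 1799 of 14709 genes were, against 1575 of 14702 with all samples. Fewer sterol enzymes were called lower with either cerebellum sample left out, and fewer fatty acid enzymes without cerebellum 2. Lower calls over all genes also became fewer in both of these fits. The median log2 fold change of tumour over cerebellum was -0.09 for the sterol enzymes, -0.23 for the fatty acid enzymes and -0.05 for all genes. At an unadjusted p below 0.05 in limma, 2 sterol enzymes were higher and 2 lower, and none of the fatty acid enzymes was higher and 5 were lower. The share of all genes at that unadjusted threshold was not computed, so such counts, here and below, describe the listed genes alone. Values are on the log2(intensity + 16) scale, which understates changes of dim probe sets, and each gene is counted by 1 probe set unless others are named.

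**Figure D1:**
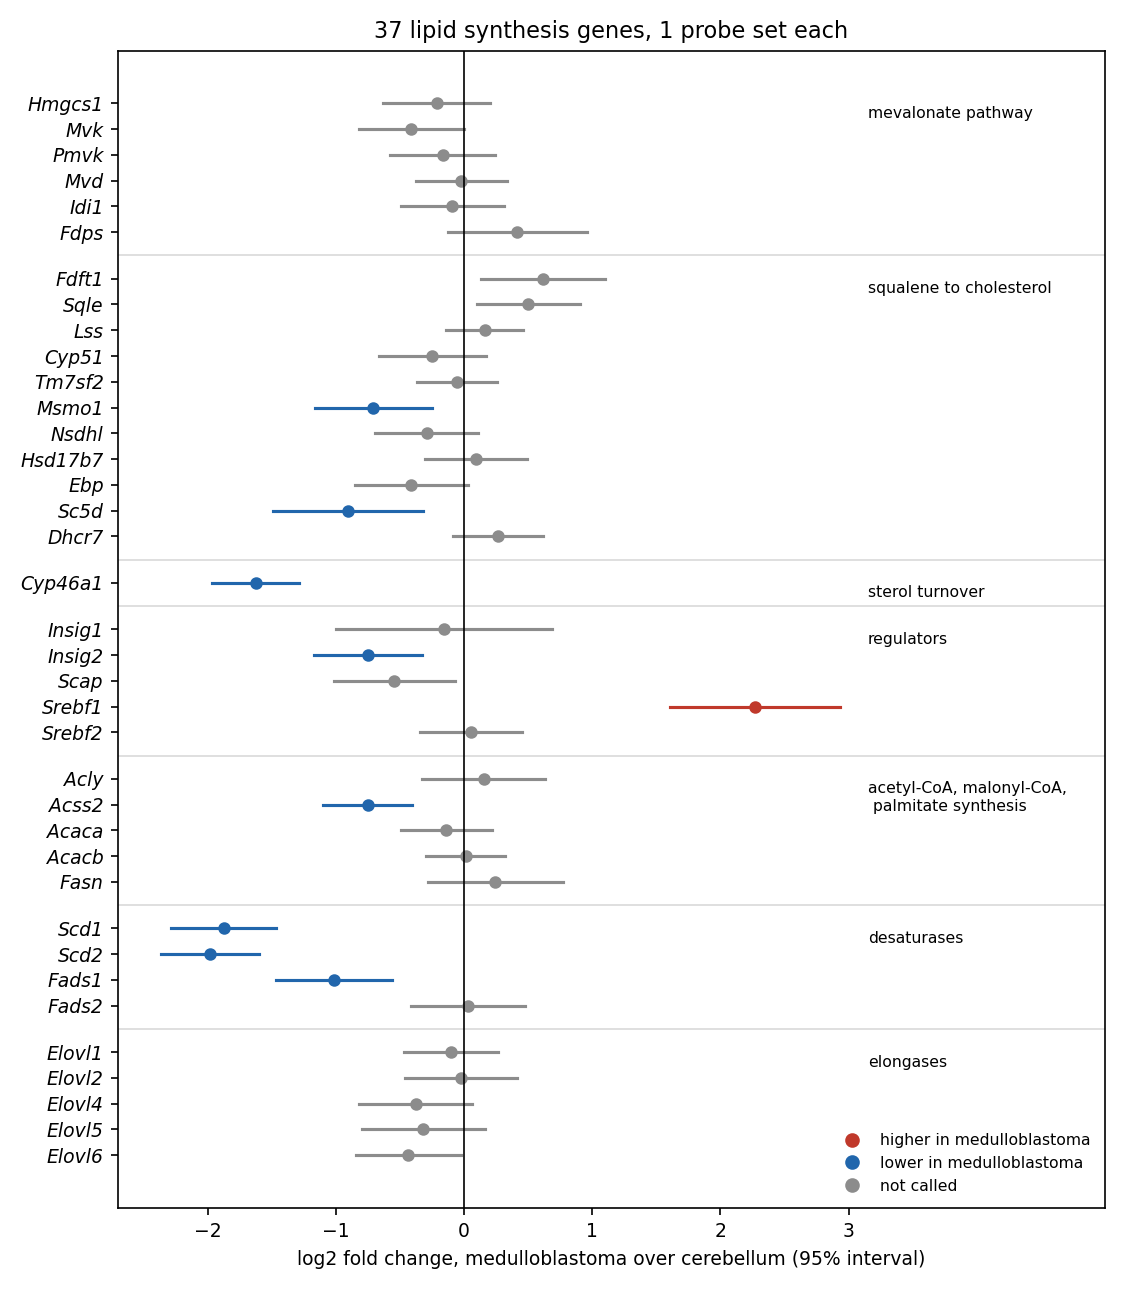
Log2 fold change of medulloblastoma over cerebellum (horizontal axis) for the probe set that stands for each of the 37 genes, grouped by role, with its 95% interval from limma (3 tumours, 2 cerebellum samples); colour shows the call. Srebf1 at 2.27 is the only gene called higher, the 3 desaturases Scd1, Scd2 and Fads1 lie at or below -1.01, and 15 of 17 sterol enzymes carry no call.

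**Figure D2:**
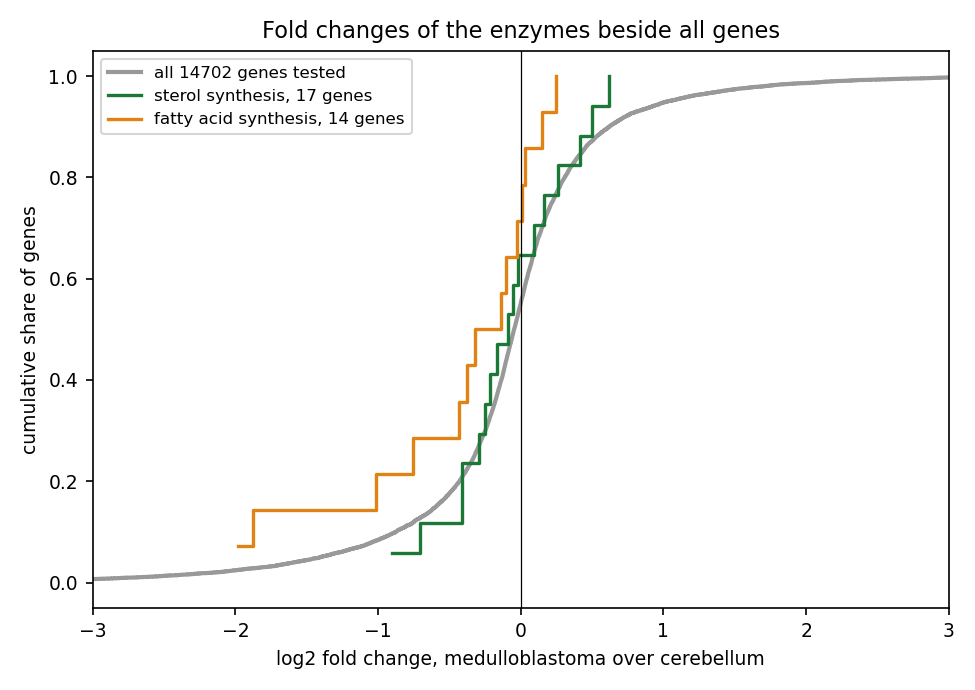
Cumulative share of genes (vertical axis) up to a given log2 fold change (horizontal axis) for 17 sterol enzymes, 14 fatty acid enzymes and all 14702 genes tested. The sterol curve spans -0.90 to 0.62, while the fatty acid curve reaches down to -1.98 and ends at 0.24.

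The 6 enzymes of the mevalonate segment did not pass the test, and none had an unadjusted p below 0.05 in limma. Hmgcs1, which makes HMG-CoA, had 294 and 314 units in cerebellum 1 and 2 and 270, 257 and 253 in tumours 1, 2 and 3. The tumours lay just below the cerebellum samples, at a log2 fold change of -0.22 ± 0.19 (SE; limma adjusted p = 0.443). Its 3 other probe sets on 430A gave -0.36 to -0.37 and the one on 430B gave 0.21, none of them called. Mvk and Pmvk, the kinases that phosphorylate mevalonate, had -0.41 and -0.17, and a second, dimmer probe set of Mvk had 0.39, none of them called. Idi1, the isomerase of the isoprenoid unit, had -0.09. Fdps, which makes farnesyl diphosphate, read 84.2 and 73.6 in cerebellum and 152, 75.5 and 115 in tumours. Tumour 2 lay between the cerebellum samples and the other tumours above both, so the log2 fold change of 0.42 ± 0.25 was not called (adjusted p = 0.241), and it was 0.65 with a limma adjusted p of 0.0145 without tumour 2. For all 6 enzymes the 95% interval lay within 1 log2 unit of 0, which leaves room for smaller differences.

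Mvd, the decarboxylase that makes the isoprenoid unit, depended on the probe set. The one that stands for it read 48.6 and 58.9 in cerebellum and 49.9, 52.4 and 55.5 in tumours, with the groups overlapping (log2 fold change -0.02 ± 0.16). A second probe set read 28.0 and 27.2 against 41.5, 51.6 and 45.7, with all tumours above, and was called at 0.51 ± 0.15 (limma adjusted p = 0.0227).

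From squalene to cholesterol 2 of 11 enzymes, Msmo1 and Sc5d, fell and none rose. That is 18.2% lower, near the 16% of all genes that fell, and the median log2 fold change of the segment was -0.06. Fdft1, which makes squalene, had 47.7 and 70.8 units in cerebellum and 124, 78.5 and 95.7 in tumours. Every tumour was above both cerebellum samples, and the log2 fold change of 0.62 ± 0.22 just missed the threshold (limma adjusted p = 0.0535). A brighter Fdft1 probe set had 0.50 ± 0.23, with all tumours above (limma adjusted p = 0.127). A dim Fdft1 probe set showed no rise, with overlapping groups at -0.09 ± 0.14 (0.695), and neither was called. Sqle, the squalene oxidising enzyme and a rate-limiting step, had 80.0 and 80.8 in cerebellum and 109, 127 and 127 in tumours. All tumours were again above, at 0.50 ± 0.18 (adjusted p = 0.0563 in limma). Without tumour 2 both were past the threshold in limma, Fdft1 at 0.75 (adjusted p = 0.00995) and Sqle at 0.47 (0.0427). Both also were after quantile normalization, at 0.70 (0.0298) and 0.61 (0.0256). Higher calls over all genes numbered 1799 and 1979 in these 2 settings, against 1575 in the main fit. Neither enzyme was called with a pseudocount of 1 or 64, or without tumour 1 or tumour 3.

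Msmo1, which removes methyl groups from the ring, read 130 and 140 units in cerebellum and 87.5, 58.1 and 86.9 in tumours. All tumours lay below, and it fell with a log2 fold change of -0.71 ± 0.21 (limma adjusted p = 0.0214). Sc5d, the desaturase of a late step, read 81.3 and 138 in cerebellum and 62.1, 30.5 and 60.8 in tumours. Cerebellum 1 sat nearer to the tumours than to cerebellum 2, and the fall was -0.90 ± 0.27 (adjusted p = 0.0226). The other Sc5d probe sets fell as well, with 96.4 and 101 against 27.9, 33.1 and 36.0 on 430A (log2 fold change -1.25 ± 0.16, adjusted p = 1.24e-04) and -0.59 ± 0.16 on 430B (0.0309). Both calls were lost in fits with 1 cerebellum sample: Msmo1 had -0.76 (adjusted p = 0.0931 in limma) without cerebellum 1 and -0.66 (0.153) without cerebellum 2, and Sc5d -0.57 (0.255) without cerebellum 2. Sc5d moved to -0.58 with a pseudocount of 64, where it was still called.

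The other enzymes of that segment did not pass on the probe set that stands for them. Ebp, the sterol isomerase, had a log2 fold change of -0.41 ± 0.20, Nsdhl, a dehydrogenase of the demethylation steps, -0.29 ± 0.18, Tm7sf2, a sterol reductase, -0.06 ± 0.14 and Dhcr7, the last reductase, 0.26 ± 0.16. Cyp51, which demethylates lanosterol, read 73.5 and 90.1 in cerebellum and 61.1, 57.6 and 81.3 in tumours (-0.25 ± 0.19). A dimmer Cyp51 probe set read 19.9 and 15.96 against 28.6, 26.8 and 40.2, with all tumours above, and was called at 0.49 ± 0.16 (limma adjusted p = 0.0398). Hsd17b7, a keto reductase, read 63.6 and 49.3 in cerebellum and 68.0, 65.0 and 50.5 in tumours (0.09 ± 0.18). A second Hsd17b7 probe set was called at 0.43 ± 0.15, with 23.7 and 21.1 against 37.7, 30.5 and 39.8 (limma adjusted p = 0.0464), and 2 on 430B were not. Lss, which closes the ring, was dim on its chosen probe set (14.95 and 15.7 against 18.7, 17.1 and 21.3, log2 fold change 0.16 ± 0.14). It was opposite on a brighter one (106 and 88.2 against 48.0, 78.9 and 70.4, -0.48 ± 0.21, limma adjusted p = 0.104), which has _s_at in its name and so ranked behind the others. A further dim Lss probe set read 15.17 and 25.05 against 13.15, 9.16 and 21.51, with overlapping groups at -0.24 ± 0.19. None of the 3 was called.

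Across the whole sterol route, all tumours lay above all cerebellum samples for 3 of 17 enzymes and below for 6, while over all genes 22.2% and 30.1% did so. The 3 were Fdft1, Sqle and Lss. The Lss cerebellum level of 15.3 units lay under 15.9 units, the level below which 430A probe sets were not tested. Lss was thus tested only through its tumour values, and its brighter probe set had all tumours below. Of the 15 enzymes without a call, 14 had a 95% interval within 1 log2 unit of 0, and the widest reached 1.10 (Fdft1). These intervals are of log2(intensity + 16). For dim enzymes such as Lss, Tm7sf2 and Dhcr7, with cerebellum means of 15.3, 20.7 and 24.0 units, the added 16 limits how far a fall can reach. Their intervals therefore do not bound the fold change of the intensity itself.

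Cyp46a1, the hydroxylase that turns brain cholesterol into a form that leaves the brain and that is made mainly by neurons, fell in the tumours. It read 65.5 and 67.2 units in the cerebellum samples and 8.20, 9.52 and 14.7 in tumours 1, 2 and 3. All tumours lay below both cerebellum samples, with a fitted log2 fold change of -1.63 ± 0.15 (adjusted p = 1.42e-05 in limma). The tumour values lie under 15.9 units, the level below which 430A probe sets were not tested, so the gene was tested only through its cerebellum values and the fitted size is no exact fold. It was -2.55 with a pseudocount of 1 and -0.80 with 64, and called with either. Markers of neurons moved with it. Of the measured markers, 7 of 8 of Purkinje cells and 8 of 8 of mature granule neurons fell, beside 16% of all genes. The granule neuron markers summed to 459 to 518 units in tumours and 9319 to 10255 in cerebellum over 7 genes of 430A. The Purkinje marker Slc1a6 and the granule neuron markers Cbln3 and Grin2c also lay under that level in tumours. They too were tested only through their cerebellum values. The part of these neurons in the Cyp46a1 result was not tested. In tissue pieces, fewer cells of a type and less RNA per cell cannot be told apart, which holds for all results here.

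Among the 5 regulators Srebf1 rose and Insig2 fell, or 20% each, beside 10.7% and 16% of all genes. Srebf1, the SREBP gene known mainly for fatty acid synthesis, read 43.7 and 64.9 units in cerebellum 1 and 2 and 486, 217 and 307 in tumours 1, 2 and 3. Each tumour stood far above both cerebellum samples, the tumours differed among themselves, and their mean was 6.20 times that of cerebellum. The log2 fold change was 2.27 ± 0.30 (limma adjusted p = 1.51e-04), and it was 1.98 to 2.53 and called with any 1 sample left out. This gene was read by a single probe set. Srebf2, the SREBP gene known mainly for cholesterol synthesis, read 78.9 and 87.3 in cerebellum and 81.3, 99.2 and 80.5 in tumours. Those groups overlapped, with 0.05 ± 0.18 (95% interval -0.35 to 0.45), and its second probe set gave 0.02 ± 0.17.

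Insig2, an endoplasmic reticulum protein that retains the SREBP complex, read 145 and 152 units in cerebellum and 86.1, 68.7 and 92.0 in tumours. All tumours were below, at a log2 fold change of -0.75 ± 0.19 (limma adjusted p = 0.011), and its other 2 probe sets fell by 1.15 and 0.92 on the log2 scale. The call was lost without cerebellum 1 (-0.78, adjusted p = 0.067) and without cerebellum 2 (-0.72, 0.101), where the lone cerebellum sample is assumed to vary like the tumours. Insig1, the sterol-induced member of that pair, was read on 430B only, at 241 and 206 in cerebellum and 311, 233 and 104 in tumours. Tumours lay on both sides of the cerebellum samples, and -0.16 ± 0.38 was not called (95% interval -1.003 to 0.68). It had 0.26 without tumour 3 and -0.47 without tumour 1. Scap, the escort of the SREBP proteins, had 163 and 223 against 106, 135 and 139, with all tumours below, at -0.54 ± 0.21 (adjusted p = 0.0783 in limma). Without tumour 2 Scap had -0.59 (adjusted p = 0.0384), and its 430B probe set had -0.37 ± 0.13 (0.093).

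**Figure D3:**
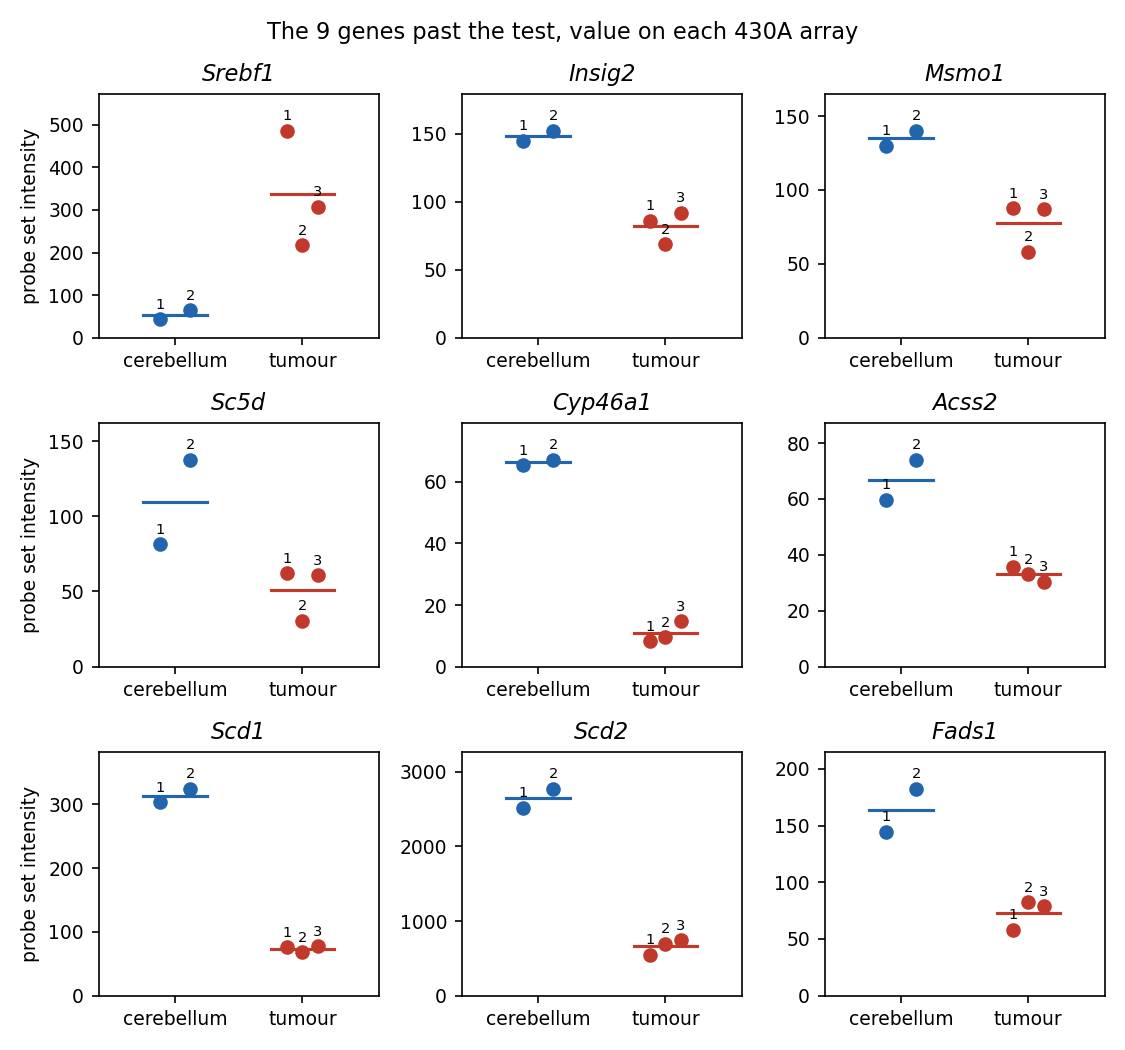
Deposited intensity (vertical axis, linear from 0) of the 9 genes past the test on each 430A array, for cerebellum (2 samples) and tumour (3 samples), with replicate numbers beside the points and bars at the group means. Srebf1 is the only one with the tumours on top, from 217 to 486 units against 43.7 and 64.9, and Sc5d shows the cerebellum samples apart at 81.3 and 138.

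The enzymes that supply and assemble the fatty acid chain split, with Acss2 falling and the others not called on the probe sets that stand for them. Acss2, which makes acetyl-CoA from acetate, read 59.7 and 74.0 units in cerebellum and 35.8, 33.0 and 30.3 in tumours. All tumours were below, at a log2 fold change of -0.75 ± 0.16 (limma adjusted p = 0.00354), and its probe sets on 430A (-0.94 ± 0.16) and 430B (-0.53 ± 0.15) fell too. Without cerebellum 2 the value was -0.63 (adjusted p = 0.0641), and with a pseudocount of 64 it was -0.43 and still called. Acly, which makes acetyl-CoA from citrate, read 179 and 221 in cerebellum and 243, 180 and 251 in tumours. The groups overlapped (0.15 ± 0.22), and 2 further tested probe sets gave 0.16 and 0.30. Fasn, the synthase that builds palmitate, had 162 and 193 against 161, 277 and 215. Its tumours also overlapped the cerebellum samples (0.24 ± 0.24, 95% interval -0.28 to 0.77).

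Acaca, the carboxylase that commits acetyl-CoA to fatty acids, depended on the chip. The 430A probe set was dim, with 29.1 and 17.4 units in cerebellum and 18.1, 18.7 and 21.0 in tumours (log2 fold change -0.14 ± 0.16). The brighter one on 430B read 68.9 and 84.9 against 162, 135 and 145, with all tumours above, and rose by 0.82 ± 0.19 (limma adjusted p = 0.0158). Had each gene been counted by its brightest probe set, Acaca would have been called higher. Acacb, the mitochondrial form, was near the low end of the scale, at 15.7 to 19.6 units on all 430B arrays (0.01 ± 0.14).

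The desaturases held the largest falls of the fatty acid enzymes. Scd2, the main stearoyl-CoA desaturase of the brain, which makes oleate, read 2517 and 2772 units in cerebellum and 547, 694 and 741 in tumours. Tumours and cerebellum were far apart, with a cerebellum mean 4.001 times that of tumours and a log2 fold change of -1.98 ± 0.17 (limma adjusted p = 8.7e-06), and its other 2 probe sets fell by 1.85 and 1.24 on the log2 scale. Scd1, a close relative, read 303 and 324 in cerebellum and 76.0, 67.8 and 77.6 in tumours. That is a cerebellum mean 4.25 times the tumour mean and a log2 fold change of -1.88 ± 0.19 (adjusted p = 2.07e-05 in limma). A dimmer Scd1 probe set had 42.9 and 35.0 against 32.0, 31.7 and 33.0 and was not called (-0.18 ± 0.15), so the mean over both was -1.03, which was called. Whether probe sets tell these near relatives apart is not given in the sources used here.

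Fads1, the delta-5 desaturase of polyunsaturated fatty acids, read 145 and 183 units in cerebellum and 58.1, 82.2 and 78.9 in tumours. All tumours were below, at -1.01 ± 0.20 (limma adjusted p = 0.00275), and without cerebellum 2 the value was -0.86 (0.0519). A Fads1 probe set of 430B pointed the other way, with 59.5 and 52.7 against 76.3, 65.2 and 65.5 (0.24 ± 0.16), and was not called. Fads2, the delta-6 desaturase, had 123 and 110 in cerebellum and 118, 143 and 100 in tumours. The groups overlapped on that probe set (0.03 ± 0.20). A second one had 47.0 and 48.5 against 86.8, 83.2 and 65.4, with all tumours above, and was called at 0.56 ± 0.17 (limma adjusted p = 0.0301), and the one on 430B had 0.38 ± 0.15 (0.126).

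None of the 5 elongases passed on the probe set that stands for it, and 1 had an unadjusted p below 0.05 in limma. That was Elovl6, which extends palmitate, with 153 and 148 units in cerebellum and 106, 97.4 and 118 in tumours. All tumours were below, at -0.44 ± 0.19 (adjusted p = 0.104), and a second probe set with 110 and 104 against 47.1, 61.0 and 69.4 was called at -0.72 ± 0.19 (0.0124), as was the mean over these 2 at -0.58 (0.0218). The Elovl6 probe set of 430B overlapped between the groups and had 0.09 ± 0.17. Elovl4, an elongase of very long chains, was similar, with 97.7 and 126 in cerebellum and 90.7, 67.7 and 89.1 in tumours (-0.38 ± 0.20). Its second probe set fell, with 132 and 122 against 82.0, 53.0 and 92.8 (-0.66 ± 0.22, limma adjusted p = 0.0404). Elovl5, which acts on polyunsaturated chains, had -0.32 ± 0.22, Elovl1, which acts on saturated long chains, -0.10 ± 0.17 and Elovl2, which acts on the longest polyunsaturated chains, -0.02 ± 0.20.

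**Figure D4:**
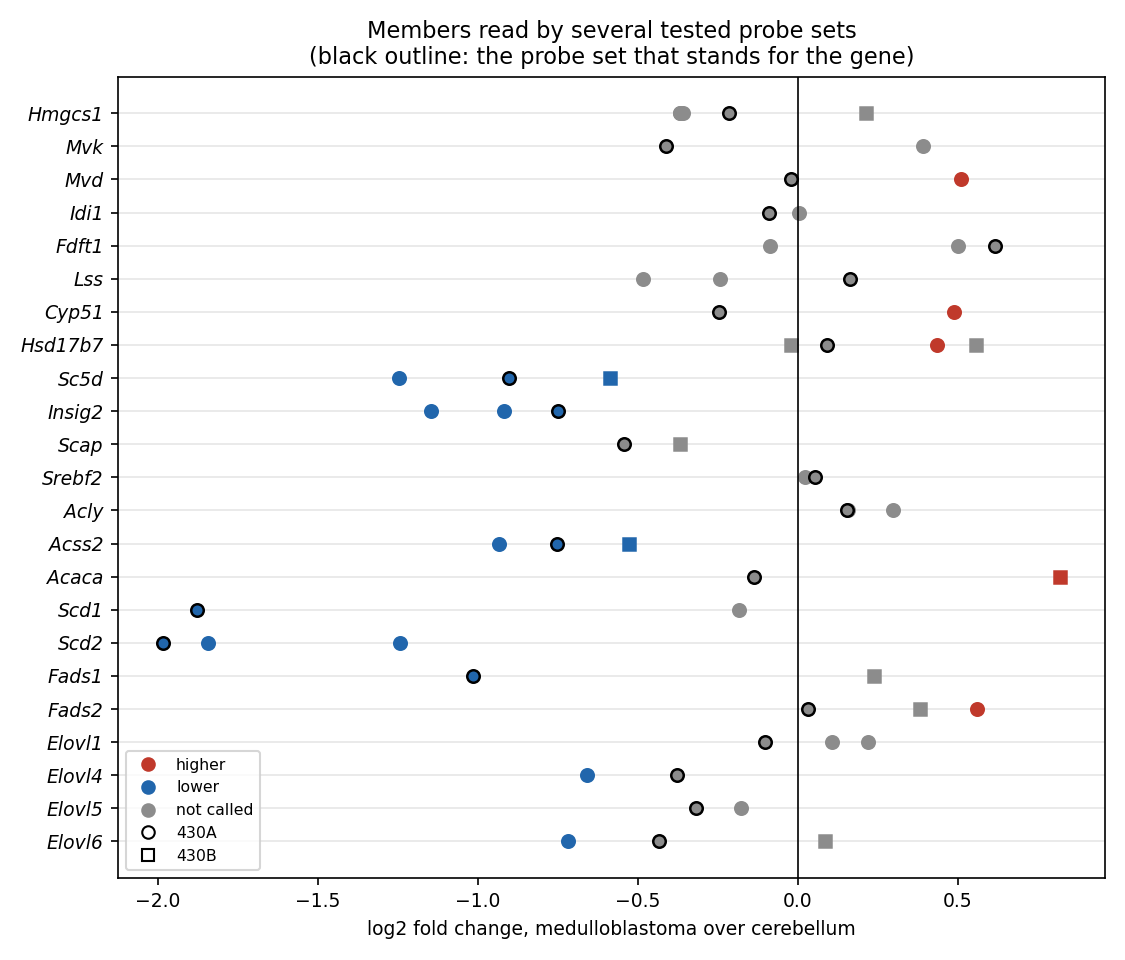
Log2 fold change of medulloblastoma over cerebellum (horizontal axis) of every tested probe set, for the 23 members that have more than 1, with colour for the call, circles for 430A, squares for 430B and a black outline for the probe set that stands for the gene. Sc5d, Insig2, Acss2 and Scd2 have all probe sets called lower, and Acaca ranges from -0.14 to 0.82.

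Probe sets of a gene differed in other cases too. Of the 23 members with several tested probe sets, 4 had all of them called (Sc5d, Insig2, Acss2 and Scd2), 9 had some called and 10 had none, and no gene had calls in both directions. The same split over all genes with several probe sets was not computed, so these counts describe the members alone. Over single probe sets, 5 of 63 on 430A were called higher and 16 lower, where 13.1% and 19% of all 430A probe sets were. On 430B it was 1 and 2 of 12, where 7.85% and 9.77% of all were.

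Within a tissue the sterol enzymes differed from sample to sample, with small median deviations and larger ones for single genes. On 430A 13 of 17 sterol enzymes lay above the tumour mean in tumour 1 and 5 of 17 in tumour 2, with median deviations of 0.10 and -0.03 on the log2 scale, while 49.9% and 51.5% of all genes were above it. Fdps and Fdft1 deviated by 0.41 and 0.30 in tumour 1 and by -0.47 and -0.27 in tumour 2, and Srebf1 by 0.58 and -0.53. Sc5d deviated by 0.26 in tumour 1 and by -0.49 in tumour 2, though the gene was lower in tumours than in cerebellum. The fatty acid enzymes had another order, with 10 of 13 above the mean in tumour 3 and Fasn at 0.36 in tumour 2 and -0.37 in tumour 1. Between the cerebellum samples, 13 of 17 sterol enzymes were higher in cerebellum 2, by up to 0.33 on either side of the mean (Sc5d).

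**Figure D5:**
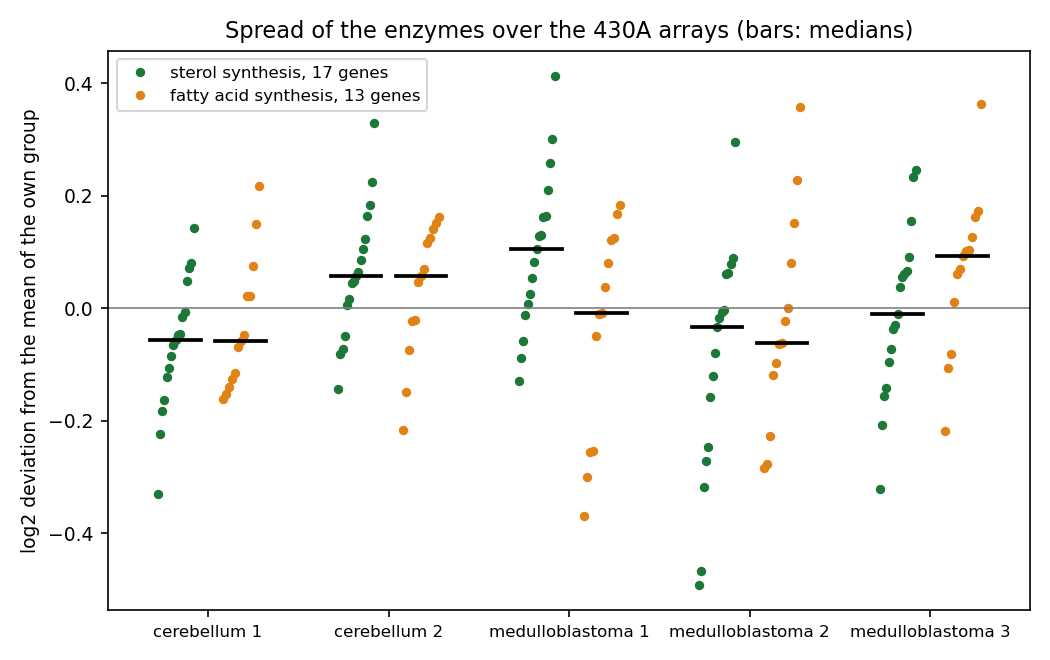
Deviation of each enzyme from the mean of its own tissue group on each 430A array (vertical axis, log2 units), for 17 sterol and 13 fatty acid enzymes, with bars at the medians; the cerebellum samples mirror each other because there are 2. Sterol enzymes sit highest in tumour 1 (median 0.10), and fatty acid enzymes in tumour 3 (median 0.09).

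Of 60 other lipid genes from lists set by function, 49 were tested and the other 11 were not analysed here. Of the 49, 4 rose and 11 fell, or 8.16% and 22.4%, beside 10.7% and 16% of all genes, with a median log2 fold change of -0.24. Among the 4 tested genes of sterol and isoprenoid synthesis, Lbr, a nuclear envelope protein that is also a sterol reductase, rose by 1.27 ± 0.20 (limma adjusted p = 4.52e-04), and Ggps1, which makes geranylgeranyl diphosphate, had -0.51 ± 0.20 (0.0754). Of 17 genes of sterol uptake, efflux and esterification, 1 rose and 4 fell: Vldlr, a lipoprotein receptor whose tumour mean was also under the tested level (-1.60 ± 0.15), Apoe, the lipoprotein of astrocytes (-0.82 ± 0.20), Mylip, which degrades lipoprotein receptors (-0.69 ± 0.18), and Lrp1 (-0.59 ± 0.20), while the lysosomal carrier Npc2 rose by 0.80 ± 0.20. Of 5 genes that process or degrade SREBP proteins, Fbxw7, a ubiquitin ligase subunit, fell by 2.29 on the log2 scale (SE 0.21), and Mbtps1, the first protease that cuts them, had 0.55 ± 0.20 (adjusted p = 0.0609 in limma).

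In fatty acid supply, elongation partners, activation and binding, 2 of 23 other genes rose and 6 fell, or 8.7% and 26.1%, beside 10.7% and 16% of all genes. Fabp5, a fatty acid binding protein, rose from 264 ± 35.6 units in cerebellum (SD, n = 2) to 1071 ± 143 in tumours (SD, n = 3), a log2 fold change of 1.95 ± 0.19. Acsl6, the acyl-CoA synthetase of neurons and astrocytes, fell from 163 ± 16.99 (SD, n = 2) to 18.2 ± 0.99 (SD, n = 3), or -2.38 ± 0.16. Tecr, the reductase of the elongation cycle, had -1.95 ± 0.31, with the cerebellum samples far apart at 1467 ± 793 units (SD, n = 2). Thrsp, a lipogenic nuclear protein, had -1.70 ± 0.17. Without cerebellum 2 the other lipid genes counted 2 higher and 6 lower, and without tumour 1 they counted 7 lower.

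Markers of the cells known to make much sterol and oleate moved in the same samples. Of 10 measured markers of oligodendrocytes and myelin 7 fell and 2 rose, and the sum over 9 of them on 430A was 572 to 859 units in tumours and 4263 to 5237 in cerebellum. The 2 that rose were Olig1 (1.14 ± 0.22) and Olig2 (1.27 ± 0.20), lineage factors that precursors also express, and Mobp, a myelin protein, fell from 451 and 571 units in cerebellum to 18.2, 10.5 and 5.73 in tumours, a mean under the tested level. Of 12 markers of astrocytes and Bergmann glia 10 fell and none rose, with sums over 11 genes of 959 to 1626 in tumours and 10765 to 12550 in cerebellum. Among 9 microglial markers 5 rose and none fell (1139 to 1442 against 444 to 517 units), and of 6 endothelial and pericyte markers none was called or had an unadjusted p below 0.05 in limma. None of these markers was listed at 1 unit in all tumours, and over all genes 10.7% rose and 16% fell. The part of any of these cell types in the falls of Scd1, Scd2, Fads1, Acss2, Sc5d, Msmo1 and Insig2, or in the rise of Srebf1, was not tested.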

How the data were processed

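Biotinylated RNA was hybridised to Affymetrix 430A and 430B arrays (3 medulloblastoma and 2 cerebellum samples on each), per the labels' protocols. The authors deposited 1 intensity per probe set and array on a linear scale; for software, scaling and background treatment the entry is: not given in the sources used here. Sample titles gave tissue and number. Intensities became log2(value + 16), and probe sets in the lowest 25% by mean value were not tested. Each chip was fitted alone with limma 3.58.1 (R 4.3.3; lmFit, eBayes with trend, two-sided), with Benjamini-Hochberg adjustment over its tested probe sets and calls at an adjusted p below 0.05. Errors with a fold change are SE. A gene was counted by 1 probe set naming it alone: 430A before 430B, then probe sets without _s_at or _x_at in the name, then the brightest. Members and lists were chosen with earlier results of these data known. Every member is named; by rule, per-sample values go to members called with a log2 change of at least 1, members with only some probe sets called, and Srebf1, Srebf2 and Insig1. Those of Sc5d, Msmo1, Insig2, Acss2, Hmgcs1, Fdps, Fdft1, Sqle, Lss, Acly, Fasn and Scap were added after their values were seen, as were the Sc5d and Msmo1 promoters; by rule a promoter shown holds TCACNCCAC. Of other lists, up to 4 called genes with the largest change are named, and Lrp1 was added. The fit was tested on simulated data. Alternatives changed 1 choice at a time. The number of arrays limits the precision. Figures used matplotlib 3.10.9 in Python 3.11.15.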

Additional observations from a re-analysis of the deposited data

How the results depend on the processing

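Over 14 alternatives, 499 of 518 values of single members kept their call, 7 lost it, 11 gained one and 1 turned direction with a call (Acaca, 0.82 with the brightest probe set). Another 26 changed sign without a call in either fit and count as kept. Srebf1, Cyp46a1, Scd1 and Scd2 kept direction and call in all 14. Sterol enzymes called higher numbered 2 after quantile normalization, 1 with no trend in eBayes (Sqle), 1 with the mean over a gene's probe sets of 1 chip (Sqle) and 0 to 3 with 1 sample left out, and those called lower numbered 0 to 2. Fatty acid enzymes called higher numbered 1 with the brightest probe set, and 2 to 4 were called lower with 1 sample left out. Regulators called lower numbered 0 to 2 with 1 sample left out. Other lipid genes called higher numbered 7 after quantile normalization and 2 to 5 with 1 sample left out, and those called lower 6 to 12. The replicate number as a block (replicate block) gave 1 sterol enzyme higher (Fdft1), 2 regulators lower (Insig2 and Scap) and 7 other lipid genes higher, and no other of these counts moved by over 1.5 times. The labels do not say that a number marks a shared animal, and the differences between samples 1 and 2 correlated between the tissues across probe sets with r = 0.096 on 430A and 0.0998 on 430B. Over all genes, 1575 were called higher and 2358 lower, against 934 and 1643 without cerebellum 1 and 873 and 1382 without cerebellum 2. After quantile normalization all genes numbered 1979 higher and 2041 lower, and with the replicate block 2135 and 2698. Without tumour 2 they numbered 1799 and 2518, and without tumour 1 1230 and 2007. Higher calls thus also rose over all genes with quantile normalization, the replicate block and tumour 2 left out. Scaling 430B on the 100 probe sets both chips hold changed no member's call. Dim probe sets limit Lss, Tm7sf2, Acacb and the 430A probe set of Acaca.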
